A study of Mus musculus with 11 samples.

Results

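The late response of leukaemic progenitors to loss of Kdm4a, Kdm4b and Kdm4c was read from 7 of the 11 arrays of the series, as the 3 arrays taken after 96 h of 4-hydroxytamoxifen against the 4 arrays taken before it (0 h). The members of the comparison were the arrays whose titles give these times, and all 25075 genes or unnamed features measured on them were described. The cells were L-GMPs, leukaemic granulocyte-macrophage progenitors transformed with the MLL-AF9 fusion oncogene, grown as 4 lines from leukaemic mice in RPMI with 20% fetal bovine serum and 10 ng/ml IL-3. Every array came from cells of the C57BL/6 background with the genotype Jmjd2a/b/c f/f; Rosa26::CreERT2, in which Jmjd2a, Jmjd2b and Jmjd2c are older names of the Kdm4 genes and CreERT2, expressed from the ubiquitous Rosa26 locus, is a Cre recombinase that acts once tamoxifen is given. The 0 h arrays came from cells without drug and the 96 h arrays from cells kept in 500 nM drug. No cells with drug but without floxed alleles were analysed here, so gene loss, the drug, Cre activity and time in culture cannot be told apart. All 0 h and 48 h arrays lay on slide 1 and all 96 h arrays on slide 2, so slide and time cannot be told apart either.

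KDM4 enzymes remove methyl groups from lysine 9 and lysine 36 of histone H3, and the 3 deleted genes encode closely related members of this family. A granulocyte-macrophage progenitor that matures towards the neutrophil makes its granule proteins in waves: the primary granule proteins come first, at the promyelocyte stage, and the secondary and tertiary granule proteins later, at the myelocyte and metamyelocyte stages. MLL fusion proteins keep progenitors dividing in place of maturing, and these cells depend on IL-3 in culture.

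Values are scaled log2 signals, meaning log2 of an array's processed spot signal less the 75th percentile of that array, so 0 is the level of a bright spot and 1 unit is 2-fold. The 96 h arrays are numbered 1, 3 and 4 after their file numbers (their titles number them 1, 2 and 3). After file numbers, each paired best with the 0 h array of its own number. Signal at the 75th percentile was 149 to 204 at 0 h and 229 to 294 at 96 h, and 96 h array 1 stood apart, with 75.8% of its spots well above background against 51.9% to 58.4% at 0 h and 54.1% and 64.7% on the other 96 h arrays. The labelled cell type carried the genes that define it: Kit, Cd34, Fcgr3, Cebpa and the leukaemia genes Hoxa9 and Meis1 were well above background on every array of both groups.

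In limma's fit, 1549 genes (6.18% of those tested) were higher at 96 h and 848 (3.38%) were lower at an adjusted p under 0.05, which together is 9.56% of the genes tested. Of these, 492 rose and 148 fell by 2-fold or more, and 92 rose and 36 fell by 4-fold or more. The direction varied with signal: among the 8358 genes of lowest mean signal 7.13% were called higher and 0.622% lower, among the 8358 of middle signal 7.23% and 3.72%, and among the 8359 of highest signal 4.18% and 5.80%. The median difference of all genes was 0.11 on the log2 scale. The split depended on the scaling, since 64.6% of the called genes were higher here, 45.8% after quantile normalization, 51.5% in the authors' deposited table and 9.02% after scaling to each array's median, which moved the median of all genes to -0.28. Here, under all 5 other scalings or tables, 117 genes were called higher and 757 lower each time.

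Single arrays mattered too. With 1 of the 7 arrays left out in turn, the genes called higher numbered from 482 to 1959 and those called lower from 221 to 1336. Of the 110 called genes that the naming rule picked, 38 kept their call without each array in turn, and such a call is said below to hold; leaving out 0 h arrays 1, 2, 3 and 4 ended 48, 6, 54 and 60 of the 110 calls, and leaving out 96 h arrays 1, 3 and 4 ended 48, 69 and 65. With same-numbered arrays compared as pairs, 2150 genes were called higher and 1366 lower.

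**Figure D1:**
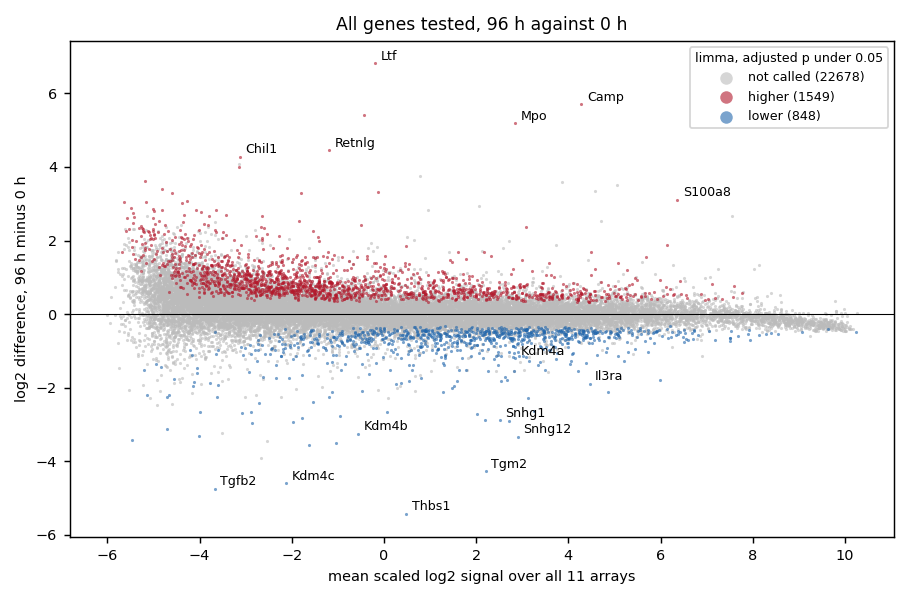
Each point is 1 of 25075 genes, with the mean scaled log2 signal over all 11 arrays on the x axis and the log2 difference, 96 h minus 0 h, on the y axis; red and blue points passed limma's test at an adjusted p under 0.05 (1549 higher, 848 lower). Ltf, Camp and Mpo lie at the top at 6.82, 5.70 and 5.18 and Thbs1 at the bottom at -5.43, while blue points are few on the dim side and the brightest genes drift below 0.

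The 3 deleted genes were lower at 96 h on every array. Kdm4c was left at 4.13% of its 0 h level, Kdm4b at 10.6% and Kdm4a at 43.6% by its brighter probe (limma, adjusted over all kept probes, p from 1.86e-06 to 0.00443). At 48 h, measured against the same 0 h arrays, the log2 differences were -4.95, -3.30 and -1.59, beside -4.60, -3.24 and -1.20 at 96 h, and Kdm4c was well above background on 2 of the 4 arrays at 48 h.

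The 3 largest rises belonged to proteins of neutrophil granules. Ltf, the iron-binding secondary granule protein lactoferrin, was the largest, with -1.83, -1.40, -3.57 and -2.16 on 0 h arrays 1 to 4 and 5.11, 3.39 and 5.23 on 96 h arrays 1, 3 and 4. All 96 h arrays lay over 4 units above every 0 h array, and the difference was 6.82 ± 0.58 (SE), or 113-fold (adjusted p = 0.000997). Within the same-numbered pairs the gain was 6.94, 6.96 and 7.39, so the 3 pairs differed in level but hardly in gain. In bulk RNA, more cells that make a transcript and more of it per cell cannot be told apart. Ltf differed little from 0 h at 48 h, by 0.53 (adjusted p = 0.512).

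Camp, which encodes the antimicrobial peptide cathelicidin of the secondary granule, read 2.06, 3.09, 1.11 and 1.03 at 0 h and 7.79, 6.52 and 8.26 at 96 h. The groups were far apart, with a difference of 5.70 ± 0.61 or 52.1-fold (adjusted p = 0.00240), and unlike Ltf it was already 2.50 above 0 h at 48 h. Mpo, the myeloperoxidase of the primary granule, read -1.55, 1.07, 0.69 and -0.81 at 0 h and 5.44, 4.89 and 4.77 at 96 h. Its rise was 5.18 ± 0.56 or 36.3-fold (adjusted p = 0.00264), and the spread of 1.24 (SD) between the 0 h arrays shrank to 0.36 at 96 h. Most of that rise was in place at 48 h, where Mpo stood 4.33 above the same 0 h arrays; the further 0.85 from 48 h to 96 h did not pass the test (adjusted p = 0.358). For Ltf and Camp the step from 48 h to 96 h did pass, at 6.29 (adjusted p = 0.00219) and 3.20 (adjusted p = 0.0119).

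Other granule and neutrophil genes were among the 14 largest rises. Retnlg, a resistin-like secreted protein of neutrophils, read -1.18, -2.15, -2.58 and -3.69 at 0 h and 3.01, 1.33 and 1.81 at 96 h, a rise of 4.45 ± 0.75 (21.9-fold, adjusted p = 0.0121), with a 48 h difference of -0.02. Chil1, a chitinase-like protein stored in neutrophil granules, rose by 4.28 ± 0.43 (adjusted p = 0.00174). Its 0 h arrays lay between -5.19 and -4.14 and its 96 h arrays between -1.18 and 0.31, without overlap.

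Fcnb, a ficolin of the granulocyte lineage that recognises sugars on microbes, did not stand well above background on the 0 h arrays and did on all 3 at 96 h. It was at least 3.67-fold higher at 96 h (adjusted p = 0.00711), a lower bound from the 96 h mean against, on each 0 h array, the higher of the probe's own signal and the dimmest one that counts as well above background. Itgb2l, an integrin beta chain that pairs on neutrophils, rose by 3.32 ± 0.82 (adjusted p = 0.0352), from between -2.23 and 0.87 to between 1.05 and 3.15. Its groups nearly touched, and the call ended when 0 h array 3 or 4, or any single 96 h array, was left out. S100a8, a calcium-binding protein that fills the neutrophil cytoplasm, read 7.05, 5.54, 3.96 and 3.76 at 0 h and 8.54, 7.49 and 8.53 at 96 h (rise of 3.11 ± 0.77, adjusted p = 0.0344). Array 1 of 0 h was already nearly as high as 96 h array 3, and this call too ended without 0 h array 3 or 4 or without any single 96 h array.

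Ceacam10, a secreted carcinoembryonic antigen family protein, rose by 3.28 ± 0.59 (adjusted p = 0.0136) with no overlap, from between -3.87 and -1.68 to between -0.75 and 1. Others of the 14 are not known as granule proteins. Ankrd22, an ankyrin repeat protein whose rise was larger than that of Fcnb, rose by 4.01 ± 0.75 (adjusted p = 0.0157), and Asprv1, a retroviral-like aspartic protease, by 2.84 ± 0.31 (adjusted p = 0.00266). At 0 h Ankrd22 and Chil1 were well above background on 2 of the 4 arrays and Asprv1 on 1, so the size of these rises rests on a baseline near background. Krt8, a keratin, and Alpk3, an atypical protein kinase, stood well above background on none of the 0 h arrays and were at least 2.01-fold and 2.73-fold higher at 96 h. Ankrd22 lost its call without 96 h array 1 or 4. Ifi44l, an interferon-stimulated gene, was at least 3.44-fold higher (adjusted p = 0.0281), and its lowest 96 h array, array 4 at -4.48, stood only just above its highest 0 h array, array 1 at -4.54. The calls of Fcnb, Krt8, Alpk3 and Ifi44l ended after normexp background correction and in the authors' deposited table, and the call of Ifi44l did not hold.

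**Figure D2:**
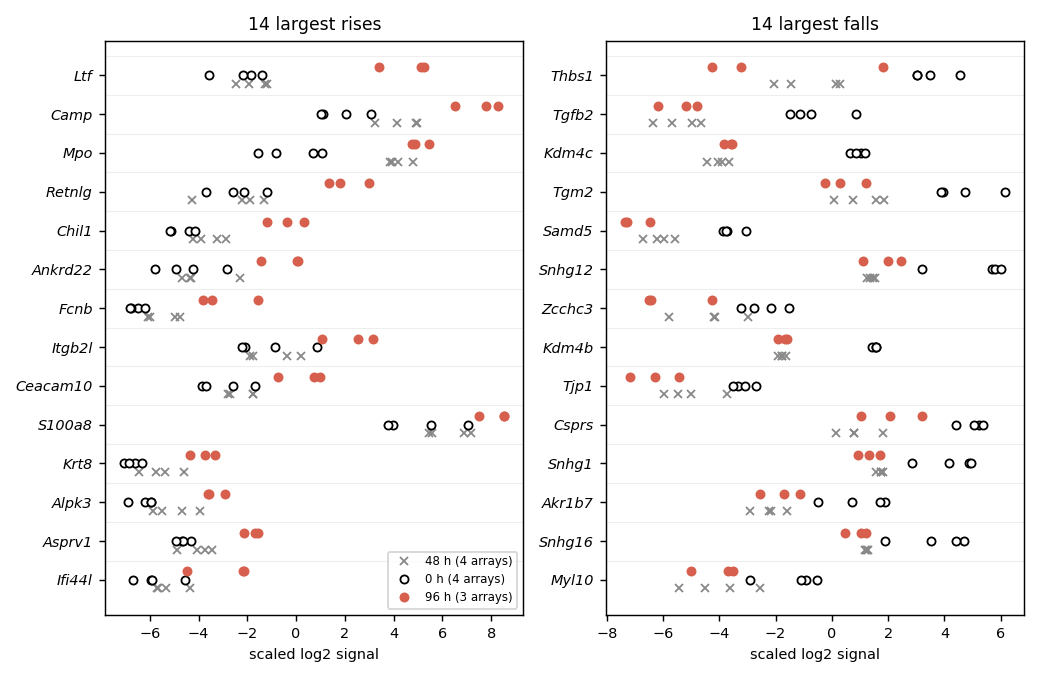
The scaled log2 signal of each array (x axis) is given for the 14 genes with the largest rises and the 14 with the largest falls among called genes with a symbol, with open circles for the 4 arrays at 0 h, crosses for the 4 at 48 h and filled circles for the 3 at 96 h. The rule for naming required that filled and open circles do not overlap; for Ltf and Retnlg the crosses lie with the open circles, and for Mpo and most falling genes with the filled ones.

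In both granule lists the called genes were all higher, and most members were not called. Of 22 primary granule and progenitor genes, 7 rose and 0 fell, against 6.18% of all genes called higher, and their median difference was 0.65 beside 0.11 for all genes. Mpo, Fcnb, Ms4a3 (a membrane protein of granulocyte progenitors, 1.89 ± 0.46, adjusted p = 0.0330) and Clec12a (an inhibitory lectin receptor of myeloid cells, 1.39 ± 0.22, adjusted p = 0.0105) led the list. Igsf6, Prss57 and Calr, picked out here after their values were seen, were the other called members, at 1.22, 1.07 and 0.69. Calr was called although 1 array of 96 h (6.11) lay below 1 of 0 h (6.12). The count of 7 was 4 without 0 h array 1, 3 or 4 or 96 h array 1 or 3, and 3 without 96 h array 4. The calls of Mpo, Fcnb and Clec12a held. The serine proteases of the same granule were not called in this fit: Elane was 1.23 higher (adjusted p = 0.0946), Prtn3 0.74 higher (adjusted p = 0.170) and Ctsg -0.04 (adjusted p = 0.858). With same-numbered arrays as a block in limma, Elane (1.53, adjusted p = 0.0156) and Prtn3 (0.92, adjusted p = 0.0457) were called higher. Ctsg was not called there either (-0.07, adjusted p = 0.671).

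Of 31 secondary and tertiary granule genes, 8 rose and 0 fell, and the median difference was 1.39. The called members were Ltf, Camp, Retnlg, Itgb2l, S100a8, Cybb, Anxa1 and Pglyrp1; the last 3, named after their values were seen, rose by 2.66, 2.37 and 1.39, Cybb from a level well above background on 2 of the 4 arrays at 0 h. Cybb is the membrane subunit of the NADPH oxidase, Anxa1 an anti-inflammatory annexin and Pglyrp1 a peptidoglycan recognition protein of the granule. All 3 arrays at 96 h lay above all 4 at 0 h for 9 of the 31, against 16.4% of all genes tested. The count was 13 without 0 h array 1, 5 without 0 h array 3 or 4, 4 without 96 h array 1 or 4 and 5 without 96 h array 3.

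The 0 h arrays differed among themselves, and comparing each 96 h array with the 0 h array of its own number takes out only what same-numbered arrays share. The list's median over the 0 h arrays, relative to each gene's 0 h mean, was 0.85, 0.09, -0.77 and -0.36 on arrays 1 to 4, and 2.45, 0.74 and 1.73 on the 96 h arrays. Array 1 was the highest of both groups and array 3 the lowest of both. With the pairs as a block in limma, 19 of the 31 were called higher, against 8.57% of all genes, and 12 of the 22 primary granule genes. Median gains within the pairs were 0.91, 1.68 and 1.85 for pairs 1, 3 and 4, and 24 of the 31 members were higher in every pair, against 34.5% of all genes. Several strong genes passed only in this paired fit: Ngp, the neutrophilic granule protein, was 3.60 higher without the block (adjusted p = 0.0512) and gained 1.52, 3.64 and 5.79 within the pairs (0.0192 with the block). S100a9, the partner of S100a8, differed by 2.67 (adjusted p = 0.0525) and gained 0.72, 3.42 and 4.18 (adjusted p = 0.0241 with the block). In both the gain was least in pair 1.

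Not every granule gene followed. Lcn2, the siderophore-binding lipocalin of the same secondary granule as Ltf, differed by 0.16 (adjusted p = 0.905), and its pairs gave -0.28, 0.25 and 0.25. Among oxidase subunits, Cybb rose while Cyba, Ncf1 and Ncf4 differed by -0.04, 0.30 and 0.20, and none of the 3 passed the test. Of 25 neutrophil surface receptors, 0 were called in limma's fit, against 9.56% of all genes. With the block 4 were higher (16%, against 8.57%). Their median of 0.14 was close to that of all genes. Itgam, the integrin alpha chain that marks myeloid cells, differed by 0.06 and Csf3r, the G-CSF receptor, by 0.27, and neither passed. The neutrophil chemokine receptor Cxcr2 was 1.27 higher without passing (adjusted p = 0.142), and passed with the block (adjusted p = 0.0172).

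**Figure D3:**
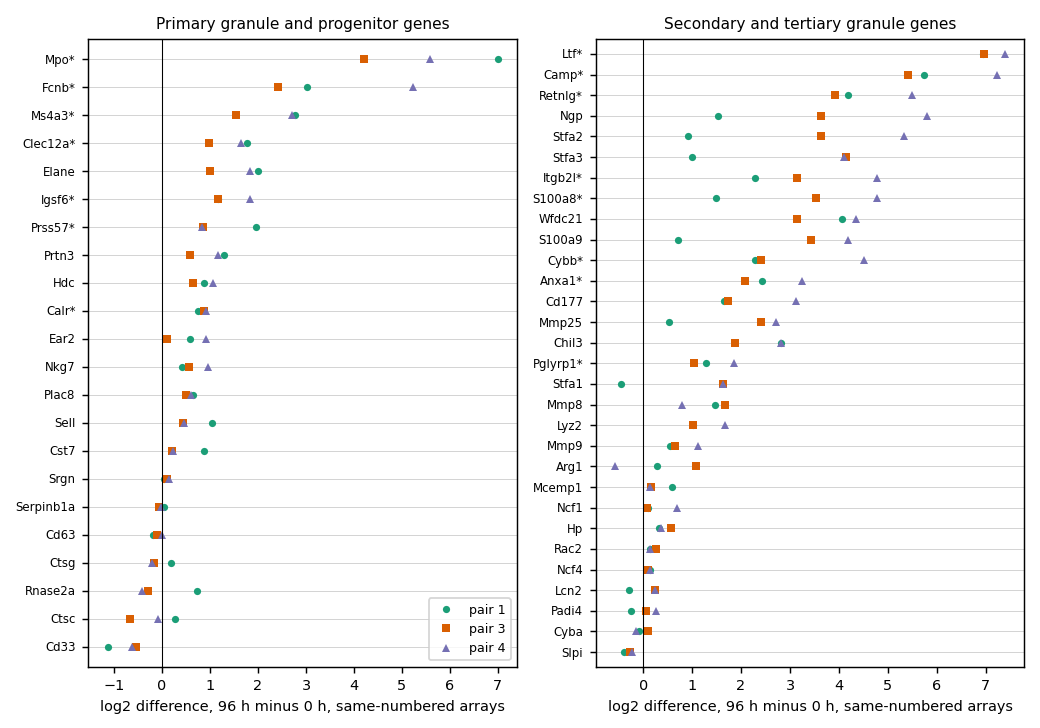
The log2 difference between the 96 h and 0 h arrays of the same number (x axis) is plotted for the tested members of both granule lists except 1 secondary and tertiary granule gene that is not reported, in the order of the group difference, with 1 symbol per pair; an asterisk marks a gene called in limma's fit without the block. For Ltf the 3 pairs lie between 6.94 and 7.39, while for S100a8 and S100a9 pair 1 lies well to the left of pairs 3 and 4.

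Markers of other cells were read beside the granule genes. Of 22 monocyte and macrophage genes, 1 rose (Apoe, a lipid carrier, 0.64) and 1 fell (Tlr4, the endotoxin receptor, -0.69). That is 9.09% called, against 9.56% of all genes. With the pairs as a block 6 of the 22 were called higher (27.3%, against 8.57% of all genes) and 2 lower, so markers of this cell type moved with the granule genes in that fit, and their part in the result was not tested. The 4 largest of these 6, named after their values were seen, were the macrophage glycoprotein Gpnmb, the lysozyme Lyz1, Mpeg1 and F13a1, at 2.03, 1.48, 1.20 and 1.07 without the block. The summed level of the monocyte and macrophage list was 7.42 to 8.31 at 0 h and 6.79 to 7.90 at 96 h. That of the secondary and tertiary granule list overlapped too, at 10.29 to 11.55 and 11.17 to 11.93. Primary granule and progenitor genes summed to 10.95 to 11.2 at 0 h, 11.43 to 11.59 at 48 h and 11.33 to 11.38 at 96 h. The lists of dendritic (0 higher and 1 lower of 15), erythroid (2 and 2 of 13), megakaryocyte (2 and 0 of 18), mast cell (0 and 1 of 10), lymphoid (1 and 2 of 16) and stromal (1 and 0 of 14) genes had no more than 2 calls in either direction, and their summed levels overlapped between 0 h and 96 h except for the erythroid list, at 6.93 to 7.29 and 6.55 to 6.75. Called either way were 6.67%, 30.8%, 11.1%, 10%, 18.8% and 7.14% of these lists, in the same order, against 9.56% of all genes. With the block these 6 lists had 1 and 3, 2 and 3, 2 and 3, 0 and 2, 4 and 1, and 1 and 2 genes called higher and lower, in the same order. As shares, 6.67%, 15.4%, 11.1%, 0%, 25% and 7.14% were higher with the block, against 8.57% of all genes. Lower were 20%, 23.1%, 16.7%, 20%, 6.25% and 14.3%, against 5.45% of all genes. Defining genes of these cells such as Alas2, Ebf1, Ms4a1, Il7r, Fcer1a, Clec9a and Cdh5 were not measured well above background on 3 arrays.

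The bases upstream of the granule genes are shown because several members rose and the myeloid factors C/EBP and PU.1 are known to bind promoters of such genes. They are the 250 bases before the start site in RefSeq's annotation of GRCm38.p6, 5′ to 3′ on the gene's strand, with matches to the C/EBP-type motif TTNNGNAA on either strand in capitals.
Ltf: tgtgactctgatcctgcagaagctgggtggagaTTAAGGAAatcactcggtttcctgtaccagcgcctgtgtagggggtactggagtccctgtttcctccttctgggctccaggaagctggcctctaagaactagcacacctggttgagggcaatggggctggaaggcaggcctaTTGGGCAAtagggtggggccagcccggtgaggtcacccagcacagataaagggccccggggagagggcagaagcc
Camp: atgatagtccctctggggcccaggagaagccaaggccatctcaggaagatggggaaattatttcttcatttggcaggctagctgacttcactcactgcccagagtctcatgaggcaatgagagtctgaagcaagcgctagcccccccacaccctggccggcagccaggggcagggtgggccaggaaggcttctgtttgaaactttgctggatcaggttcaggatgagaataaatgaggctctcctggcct
Mpo: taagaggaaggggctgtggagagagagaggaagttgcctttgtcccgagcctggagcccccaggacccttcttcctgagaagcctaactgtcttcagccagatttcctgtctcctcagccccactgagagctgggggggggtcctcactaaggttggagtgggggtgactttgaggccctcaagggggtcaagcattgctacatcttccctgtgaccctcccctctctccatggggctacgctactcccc
Fcnb: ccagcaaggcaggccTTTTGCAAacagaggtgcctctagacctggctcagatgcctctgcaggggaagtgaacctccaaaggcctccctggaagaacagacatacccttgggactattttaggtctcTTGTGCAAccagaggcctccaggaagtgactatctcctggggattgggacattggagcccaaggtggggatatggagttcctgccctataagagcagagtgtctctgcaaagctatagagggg
The windows lie at chr9:111019042-111019291 (plus strand), chr9:109849457-109849706 (minus), chr11:87793534-87793783 (plus) and chr2:28084879-28085128 (minus). Ltf holds 2 matches, beginning 217 and 75 bases before the start, and Fcnb 2, at 235 and 123. Camp and Mpo hold none in these windows. Of the 24 secondary and tertiary granule genes with an entry, 15 hold the motif (62.5%), and of the 19 primary granule genes 9 (47.4%), against 36.8% of all 32851 promoters of the table. The PU.1-type motif GAGGAA, on either strand, is in 12 of the 24 (50%) and 11 of the 19 (57.9%), against 23.3% of all. These matches are a description of letters and no measure of binding.

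As a list, the transcription factors of this maturation did not rise with the granule genes. Of 25 granulocyte and monocyte factors 0 rose and 5 fell, against 3.38% of all genes called lower, with a median of -0.30. Cebpe, which directs the secondary granule programme, differed by 0.29 (adjusted p = 0.255), Cebpa by -0.31, Gfi1 by 0.01 and Spi1, which encodes PU.1, by 0.01, none past the test. Nfil3, a basic leucine zipper factor, fell by 1.51 ± 0.30 (adjusted p = 0.0192), from 4.21, 3.69, 4.38 and 4.43 to 3.26, 2.53 and 2.20. All its 96 h arrays lay below its 0 h arrays. Klf6 and Cebpb fell by 0.68 and 0.48, and Rara, the retinoic acid receptor, and Etv6, an ETS repressor, by 0.63 and 0.52, both losing the call with the pairs as a block (adjusted p = 0.0667 and 0.0671). With the block 2 were called higher and 4 lower (8% and 16%, against 8.57% and 5.45% of all genes). No call of this list held, and the count was 0 to 5 over the arrays left out.

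Of 27 leukaemia and stem cell genes, 1 rose (Igf2bp2, an RNA-binding protein, 0.95) and 1 fell (Gata2, a factor of early progenitors, -0.80), and the median was -0.11. Of all genes 6.18% rose and 3.38% fell. Neither call held. With the block 5 of the 27 were called lower (18.5%, against 5.45% of all genes), and 12 (44.4%, against 21.0%) were lower in every pair. Hoxa9 differed by -0.45 (adjusted p = 0.0901) and Meis1 by -0.27 (adjusted p = 0.174); MLL fusions are known to raise both factors. Of 20 genes of the MLL fusion complex 2 rose and 0 fell, against 6.18% and 3.38% of all genes. Psip1, the chromatin tether of MLL, rose by 0.60, and Ell3, an elongation factor, was at least 1.61-fold higher. The call of Ell3 held and that of Psip1 did not. Psip1 also lost its call under scaling to the array median and with the mean of a gene's probes. Ell3 lost its call after quantile or normexp processing and in the authors' deposited table.

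The largest falls apart from the deleted genes were of secreted and matrix-facing proteins. Thbs1, the adhesive matrix protein thrombospondin 1, read 4.57, 3.02, 3.04 and 3.50 at 0 h and 1.81, -4.26 and -3.24 at 96 h, a difference of -5.43 ± 1.24 (adjusted p = 0.0284). The pairs differed, at -2.76 in pair 1 against -7.31 and -6.74 in pairs 3 and 4. It was well above background on 2 of the 3 arrays at 96 h. Leaving out 96 h array 3 or 4, or 0 h array 1, 3 or 4, ended the call. Tgfb2, a TGF-beta ligand, was well above background on every 0 h array and on no 96 h array, and was at least 20.2-fold lower (adjusted p = 0.00466).

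Tgm2, the protein-crosslinking transglutaminase 2, read 6.17, 3.96, 3.89 and 4.74 at 0 h and 1.22, -0.23 and 0.28 at 96 h. It fell by 4.27 ± 0.61 (adjusted p = 0.00711), by a similar amount in each pair (-4.95, -4.12 and -4.46). In the list of 27 TGF-beta, thrombospondin and matrix genes, 4 fell and 1 rose, against 3.38% and 6.18% of all genes. The list's median was 0.14, beside 0.11 for all genes. Besides Thbs1 and Tgfb2, Col4a1, a basement membrane collagen, and Mamdc2 fell by 3.55 ± 0.86 and 3.49 ± 0.91. Both were called although the groups overlapped, Col4a1 through a 0 h array 2 of -1.75 and Mamdc2 through 96 h array 1 at 0.68. Fbn1, fibrillin 1, rose by 2.27 ± 0.50 (adjusted p = 0.0263), from a level well above background on 1 of the 4 arrays at 0 h. None of the calls of Col4a1, Mamdc2 and Fbn1 held, and that of Tgfb2 did. With the block 4 of the 27 were lower and 3 higher (14.8% and 11.1%, against 5.45% and 8.57% of all genes). In every pair 9 were lower and 8 higher (33.3% and 29.6%, against 21.0% and 34.5% of all genes).

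Among the other falls, Samd5 and Tjp1, the tight junction scaffold ZO-1, were well above background on every 0 h array and on no 96 h array, and were at least 2.77-fold and 3.77-fold lower. Zcchc3, a zinc finger protein of nucleic acid sensing, fell by 3.31, Akr1b7, an aldo-keto reductase, by 2.76 and Myl10, a myosin light chain, by 2.70, Zcchc3 to a level well above background on 1 of the 3 arrays at 96 h, and each of these lost its call without 96 h array 3 or 4, among others. Csprs, which belongs to a multicopy family whose copies a probe may not separate, fell by 2.91 ± 0.50 (adjusted p = 0.0127).

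The stress genes driven by ATF4, the factor that turns on amino acid supply and stress repair when translation is held back, were the list with the largest share of calls. Of 34 tested, 18 fell and 0 rose, against 3.38% of all genes called lower, and their median was -0.51. All 3 arrays at 96 h lay below all 4 at 0 h for 20 of the 34, against 8.7% of all genes tested. In 24 of the 34 every pair was lower, against 21.0% of all genes, and in 0 was every pair higher. With the pairs as a block 16 were called lower (47.1%, against 5.45% of all genes). The count depended on the arrays in the fit: it was 6 without 96 h array 3, 7 without 96 h array 4, 7 without 0 h array 3 or 4, 10 without 0 h array 1, and 2 when the 48 h arrays were left out of the fit and so lent no degrees of freedom.

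Nupr1, a small chromatin protein induced by stress, led with 4.87, 4.44, 5.54 and 5.52 at 0 h and 3.42, 2.63 and 1.36 at 96 h, a difference of -2.62 ± 0.43 (adjusted p = 0.0115). Atf3, a stress-induced repressor, fell by 2.38 ± 0.59 (adjusted p = 0.0356), Ddit3, which encodes the pro-apoptotic factor CHOP, by 2.11 ± 0.51 (adjusted p = 0.0327) and Ppp1r15a, which restores translation as GADD34, by 1.82 ± 0.31 (adjusted p = 0.0121). For all 4 the 96 h arrays lay below all 0 h arrays, and in all 4 the fall was least in pair 1 and most in pair 4, as for Ddit3 with -0.90, -1.91 and -3.88. The calls of Nupr1 and Ppp1r15a held; those of Atf3 and Ddit3 ended without 0 h array 1, 3 or 4 or without 96 h array 3. The pseudokinase Trib3 also fell, by 1.79, and among those that carry amino acids Slc7a3 fell by 1.53, Slc3a2 by 0.79, Slc7a5 by 0.59 and Slc38a2 by 0.56 (named after their values were seen). The enzymes of serine and asparagine synthesis were different: Asns, Psat1, Psph and Phgdh differed by -0.38, -0.28, -0.33 and 0.08, none past the test, and Atf4 itself by -0.35 (adjusted p = 0.106). At 48 h, against the same 0 h arrays, the list's median was -0.87 beside -0.51 at 96 h, and Ddit3 stood at -3.83 beside -2.11.

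The ATF4 response element, a C/EBP and ATF composite site, was searched as TGATGNAA on either strand in the same windows, because it is the site through which ATF4 is known to act. Nupr1 and Atf3 are shown, each with 1 match in capitals that begins 110 bases before the start.
Nupr1: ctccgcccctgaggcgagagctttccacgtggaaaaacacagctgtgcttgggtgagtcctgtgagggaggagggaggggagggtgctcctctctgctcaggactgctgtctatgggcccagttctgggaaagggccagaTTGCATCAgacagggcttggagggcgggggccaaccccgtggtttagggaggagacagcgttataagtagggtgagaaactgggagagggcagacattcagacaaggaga
Atf3: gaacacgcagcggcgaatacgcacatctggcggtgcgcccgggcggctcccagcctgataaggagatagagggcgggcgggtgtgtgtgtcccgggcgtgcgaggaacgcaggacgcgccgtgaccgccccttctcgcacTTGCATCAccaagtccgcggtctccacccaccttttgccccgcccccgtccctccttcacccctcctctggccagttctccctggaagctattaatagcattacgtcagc
The windows lie at chr7:126625471-126625720 and chr1:191183334-191183583, both on the minus strand of GRCm38.p6, with the start sites as in RefSeq. Of the 28 members of the list with an entry 8 hold the element (28.6%), against 3.45% of all promoters in the table. Of its 14 called members with an entry, only the 2 shown hold it (14.3%). No run of 8 bases can match both this element and the C/EBP-type motif above.

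**Figure D4:**
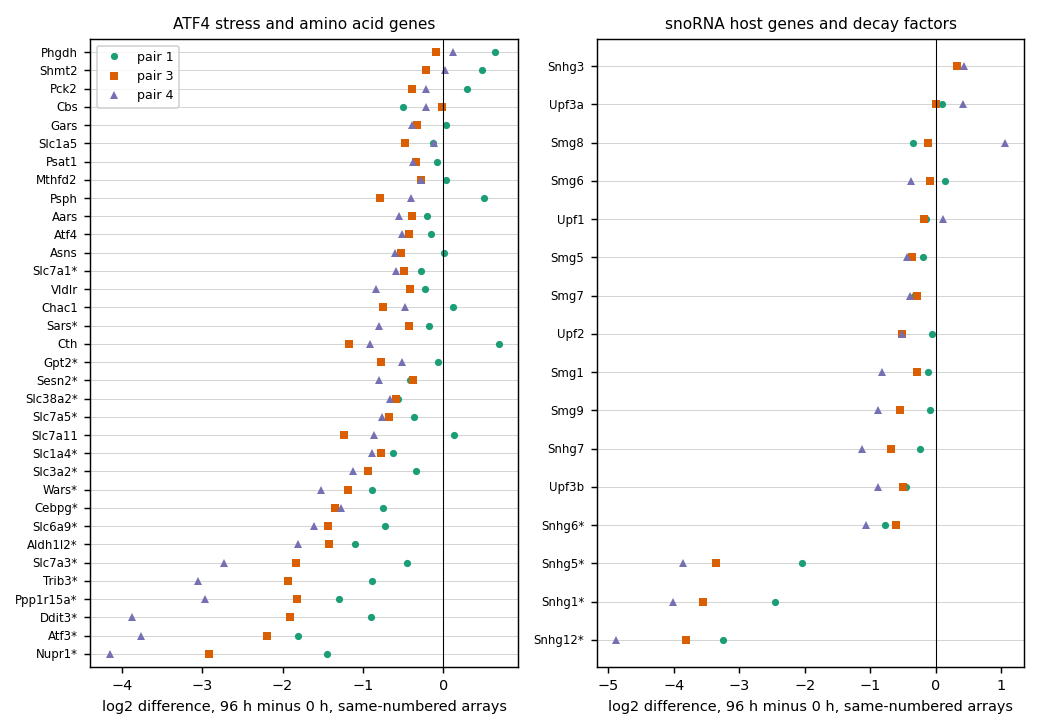
The log2 difference between the 96 h and 0 h arrays of the same number (x axis) is plotted for the 34 ATF4 stress and amino acid genes and the 16 snoRNA host genes and decay factors, with 1 symbol per pair and an asterisk for a gene called without the block. Most ATF4 genes lie left of 0 in all pairs, with pair 4 the farthest left for Nupr1 (-4.15) and Ddit3 (-3.88), and Snhg12, Snhg1 and Snhg5 lie apart from the decay factors.

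A second group of falls was made of host genes of small nucleolar RNAs, whose spliced transcripts are normally cleared by nonsense-mediated decay because they hold early stop codons. Snhg12 read 5.71, 3.21, 5.79 and 6.00 at 0 h and 2.46, 1.98 and 1.12 at 96 h, a difference of -3.33 ± 0.60 (adjusted p = 0.0144). Snhg1 fell by 2.88 ± 0.43 (adjusted p = 0.00847), Snhg16 by 2.72 ± 0.54 (adjusted p = 0.0189), Snhg5 by 2.66 ± 0.44 (adjusted p = 0.0116) and Snhg6 by 0.67 ± 0.18 (adjusted p = 0.0447). In Snhg12, Snhg1, Snhg16 and Snhg5 the 96 h arrays lay below all 0 h arrays and 0 h array 2, which has no partner at 96 h, was the lowest of its group. Snhg3 differed by 0.34 and Snhg7 by -0.47 without passing. The calls of Snhg12, Snhg1 and Snhg5 held. In the list of 16 host genes and decay factors, which does not hold Snhg16, 4 fell, against 3.38% of all genes, and 0 rose. All 4 are host genes: of the decay factors, Upf1 differed by -0.13, Upf2 by -0.32 and Smg1 by -0.34, and none passed. With the block 5 of the 16 were called lower (31.2%, against 5.45% of all genes).

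In the IL-3 pathway, whose receptor signals through JAK2 and STAT5, 6 of 26 genes fell, against 3.38% of all genes, and 0 rose. Il3ra, the receptor's ligand-specific alpha chain, read 5.37, 5.33, 5.51 and 5.43 at 0 h and 3.28, 3.91 and 3.38 at 96 h, a difference of -1.89 ± 0.17 to 27.1% of the 0 h level (adjusted p = 0.00137). It was lower than at 48 h as well, by 0.69. The chains it pairs with did not follow, with Csf2rb at -0.04 and Csf2rb2 at 0.07, nor did Jak2 at -0.09 or Stat5a at 0.09. Targets of STAT5 were among the falls: Cish, a feedback inhibitor, fell by 0.97 ± 0.11 (adjusted p = 0.00372) with all arrays apart, Pim3, a survival kinase, by 0.77 ± 0.14, Bcl2l1, which encodes BCL-XL, by 0.66 ± 0.14, and Socs2 and Osm by 0.56 and 0.63. Other targets, Pim1 at -0.33 and Socs3 at -0.48, did not pass. The count was 2 without 96 h array 3 and 3 without 96 h array 4, and the calls of Il3ra and Cish held. With the pairs as a block Osm lost its call (adjusted p = 0.0628), and Bcl6, a repressor gene that was 2.30 higher without passing, was called higher (2.57, adjusted p = 0.00504).

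Of 30 BCL2 family and caspase genes, 4 fell, against 3.38% of all genes, and 0 rose. With the block 6 were lower (20%, against 5.45% of all genes). The 4 were on both sides of cell death: Bcl2l1 protects, while Bid, Pmaip1 (NOXA) and Bok promote death. Bok read 0.02, 0.10, 0.17 and -0.02 at 0 h and -0.76, -0.77 and -0.70 at 96 h, a difference of -0.81 ± 0.12 (adjusted p = 0.00810), where at 48 h it had been 0.92 above the same 0 h arrays (adjusted p = 0.00199). Pmaip1 and Bid fell by 0.73 ± 0.13 and 0.66 ± 0.13. The calls of Bok and Pmaip1 held, and the count was 2 to 7 over the arrays left out. Mcl1, Bax and Bak1 differed by -0.02, -0.23 and -0.09 without passing. Of 27 p53 targets 3 rose and 3 fell, against 6.18% and 3.38% of all genes. Gadd45a fell by 1.54 ± 0.30 and Cdkn1a, the p21 cell cycle inhibitor, differed by -0.51 (adjusted p = 0.117). Over the arrays left out, 0 to 2 p53 targets were called higher and 0 to 6 lower. With the block 4 were higher and 6 lower (14.8% and 22.2%, against 8.57% and 5.45% of all genes).

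Jun, an AP-1 subunit, also changed its side of 0 h between the times. It read 2.99, 3.19, 3.11 and 3.98 at 0 h and 2.58, 1.88 and 1.56 at 96 h, a difference of -1.31 ± 0.29 (adjusted p = 0.0258), beside a rise of 1.15 at 48 h. Of 29 immediate early genes 4 fell and 2 rose, against 3.38% and 6.18% of all genes. Jund and Ier2 fell by 0.71 and 0.56. Dusp4, a MAP kinase phosphatase, was at least 1.91-fold lower, and Nr4a2, an orphan nuclear receptor, rose by 1.11. None of these calls held; the one of Jun ended without 96 h array 3 or 4.

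Few growth genes were called. Of 32 mitosis genes 1 was called (3.12%, against 9.56% of all genes). This was Mki67, the Ki-67 proliferation antigen, which rose by 1.68 ± 0.39 (adjusted p = 0.0288), from 2.56, 4.67, 3.69 and 3.41 to 5.09, 5.57 and 5.15. The mitosis list's median was 0.61, and 26 of 32 were higher in every pair against 34.5% of all genes. Its spread at 0 h was wide, with list medians of -0.89, 0.69, 0.37 and -0.16 on arrays 1 to 4 against 0.58, 0.59 and 0.69 at 96 h. So the 96 h arrays lay close to 0 h array 2, the highest of its group, and 0 h array 1 was the lowest. Of 34 G1/S and replication genes 2 rose (Lig1, DNA ligase 1, by 0.79 and Orc1, an origin binding protein, by 0.66) and 1 fell (E2f2, by 0.69). That is 8.82% called, against 9.56% of all genes. With the block 3 mitosis genes and 6 G1/S genes were called higher (9.38% and 17.6%, against 8.57% of all genes). None of the 4 calls held, and without 0 h array 2 the mitosis list had 11 genes called higher. The rises of Mki67, Lig1 and Orc1 were lost under scaling to the array median.

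Of 35 MYC network and ribosome biogenesis genes 6 fell, against 3.38% of all genes, and 0 rose, with a median of -0.15. With the block 9 were lower (25.7%, against 5.45%) and 2, the MYC antagonists Mxd1 and Mxd3, were higher. Nob1, an endonuclease of the small ribosomal subunit, fell by 0.58 ± 0.09 (adjusted p = 0.0103) and Ubtf, a factor of RNA polymerase I, by 0.50 ± 0.12 (adjusted p = 0.0311), while Myc differed by -0.02. The call of Nob1 held, and the count was 1 to 10 over the arrays left out. The call of Ubtf ended when the mean of a gene's probes replaced the brightest probe, among other settings. Its difference ranged from -0.88 to -0.05 over the settings. Of the 40 cytosolic ribosomal proteins 0 were called in limma's fit, and all 40 had differences below 0, with a median of -0.27. With the pairs as a block 14 were called lower (35%, against 5.45% of all genes). They are among the brightest genes on the array, and 311 other genes with a mean scaled log2 signal of 8.77 or more had a median difference of -0.24. The difference followed the scaling: the list's median lay 0.38 below that of all genes here, 0.02 below after quantile normalization and 0.02 above in the authors' deposited table, where 3 members were called higher.

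Of 28 cholesterol synthesis genes 3 rose, against 6.18% of all genes, and 0 fell, with a median of 0.50. With the block 6 were higher (21.4%, against 8.57%), and 22 were higher in every pair, against 34.5% of all genes. The pairs leave out 0 h array 2, which was already at the 96 h level. Relative to each gene's 0 h mean, list medians were -0.26, 0.60, -0.0055 and -0.30 on 0 h arrays 1 to 4. On 96 h arrays 1, 3 and 4 they were 0.40, 0.49 and 0.64. Hmgcs1, which makes HMG-CoA, rose by 0.68 ± 0.12 (adjusted p = 0.0139). All 3 calls ended under scaling to the array median, and the count was 15 without 0 h array 2, 0 without 96 h array 3 and 1 without any other single array of either group. Abcg1, a sterol exporter and target of the liver X receptors, fell by 1.32 ± 0.31 (adjusted p = 0.0301), from between 1.16 and 2.74 to between 0.53 and 0.99, a call that did not hold. Of 37 hypoxia and glycolysis genes 1 rose (Pfkfb4, 0.91) and 1 fell (Vegfa, -0.55), against 6.18% and 3.38% of all genes. The list's median was -0.05 at 96 h beside 0.48 at 48 h. With the block 1 of the 37 was higher and 3 were lower (2.7% and 8.11%, against 8.57% and 5.45% of all genes).

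In a list of 36 genes drawn up around H3 lysine 9 and 36 methylation, the marks that KDM4 enzymes act on, 4 rose and 2 fell, against 6.18% and 3.38% of all genes. Not every member acts on these marks, as Dnmt1 methylates DNA. Nsd2, which methylates H3 lysine 36, rose by 0.78 ± 0.15 (adjusted p = 0.0167), and Dnmt1, Phf2 and Atrx rose by 0.77, 0.66 and 0.53. Ehmt1, an H3 lysine 9 methyltransferase, and Jmjd6 fell by 0.49 and 0.40. The rises of these 4 were lost under scaling to the array median, and the 6 calls of the list did not hold. The calls of Nsd2, Atrx and Ehmt1 also ended when the mean of a gene's probes replaced the brightest probe. Of 9 germline genes measured, Rhox5 and Dppa5a, which are silenced in most somatic cells, were at least 3.71-fold and 2.23-fold higher, and Ddx4, the germ cell helicase Vasa, fell by 2.11 ± 0.35 (adjusted p = 0.0119). These 3 calls held, but Dppa5a lost its call after quantile or normexp processing and in the authors' deposited table. Of 33 interferon-stimulated genes 0 were called in limma's fit, and 3 were higher with the block (9.09%, against 8.57% of all genes).

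**Figure D5:**
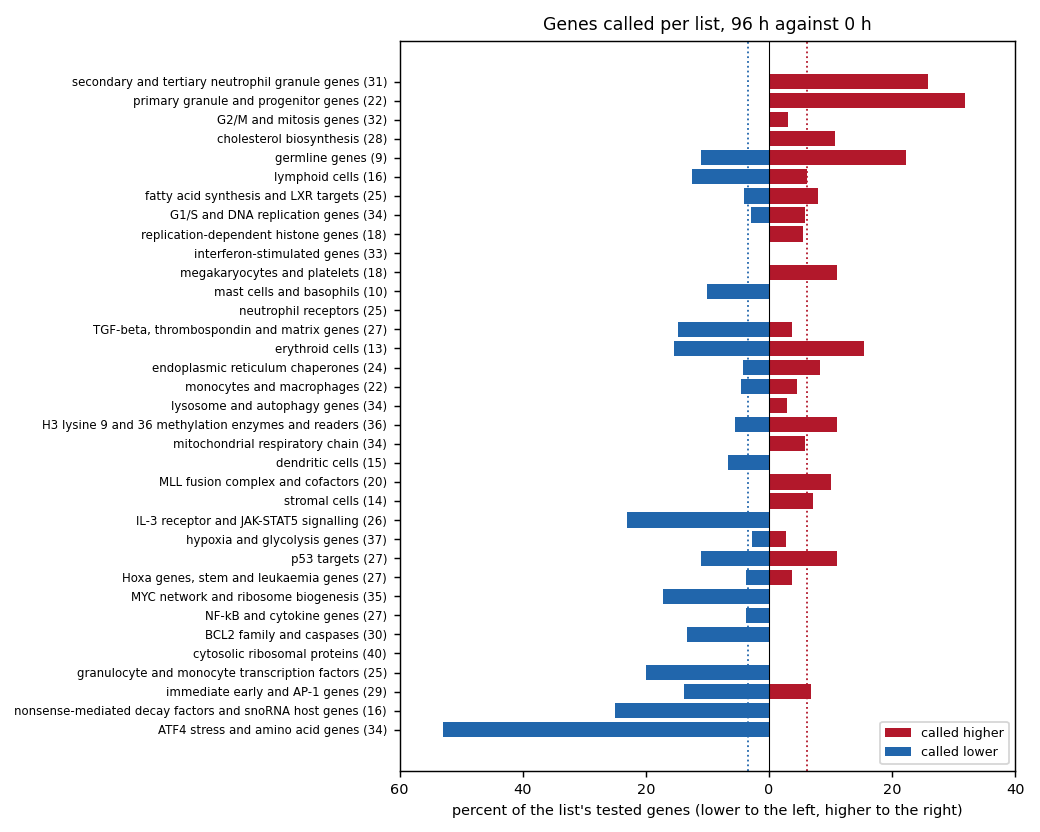
Bars give the share of each list's tested genes (number in brackets) called higher (right) and called lower (left), ordered by the list's median difference, and the dotted lines mark the shares over all genes, 6.18% higher and 3.38% lower. The 18 of 34 ATF4 genes called lower form the longest bar, and both granule lists hold calls on the right side only.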

How the data were processed

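Total RNA of 11 samples was labelled with Cy3 and hybridised to 1-colour Agilent arrays, per the labels' protocols, with 4 arrays at 0 h, 4 at 48 h and 3 at 96 h. The design text names 4 cell lines without tying them to arrays, so p-values measure the spread between these samples, and the number of arrays limits precision. The deposited scanner files hold spot intensity as a processed signal, background-subtracted and detrended within the array by Feature Extraction 11.0.1.1 and not normalized between arrays, per the file headers. Median spot and local background intensity, also deposited, served the normexp alternative (offset 50). Further deposited columns are 0 or 1 flags (score) for signal well above background, outliers and saturation, per the file headers. The values of the authors' deposited series table are on a log2 scale, with column medians of 6.20 to 6.21. Each column correlated at 0.999975 or more with the same array after normexp correction and quantile normalization. The submitters' processing notes name limma, without a version.

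Control spots and outlier-flagged spots (125 to 194 per array) were left out and none was saturated. Log2 signals less the log2 of the array's 75th percentile were averaged over the spots of a probe. Of 55681 probes, 27656 matched 1 symbol in a RefSeq list of GRCm38.p6 and 28025 none. Probes well above background on at least 3 arrays with a value on all were kept, and the brightest stood for its gene, which left 14997 genes with a symbol and 10078 features without. Probes of 6 genes were called in opposite directions.

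Genes were tested with limma 3.58.1 (R 4.3.3) over all 11 arrays in 3 groups, with Benjamini-Hochberg adjustment over all 25075; errors are SEs of the log2 difference. On data simulated for 96 h against 0 h over 25075 genes, 52 of 100 genes changed 2-fold and 79 of 100 changed 4-fold were called, and 4 unchanged genes. The simulation changed only 200 genes and drew the noise of each gene separately, while the real arrays deviate together. Its rates therefore need not apply to the real arrays. Arrays of 96 h deviated together with the 0 h array of the same file number, with correlations of 0.36, 0.23 and 0.12 for numbers 1, 3 and 4, so these numbers were taken as pairs, and values with the replicate block are given where they change the call of a gene described or a described list's count by over 1.5 times. Genes were named by rule: the 14 largest rises and falls among called genes with non-overlapping groups, signal well above background on every array of the higher group and a named symbol, then Ltf, Camp, Mpo, the deleted genes and Il3ra, and from each list up to 4 called genes in its main direction and 2 in the other, or, with no call, the gene of smallest p. Of these, genes of the cell type lists and some others are given only by counts, and a few list members are counted but not reported here by name. The 35 lists (1006 entries, 984 with a probe), the comparison and the rule were chosen with earlier results of these data known. No list test was run, and a list is described by counts and medians. Promoters were scanned in Python 3.11.15, and figures drawn with matplotlib 3.10.9 from pandas 2.3.3 and numpy 2.4.6 tables.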

Additional observations from a re-analysis of the deposited data

Results flagged for a closer look

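Among 30 genes checked for an array far from the rest of its 4 arrays at 0 h, 2 stood out, where chance flags about 1 group in 20. For Samd5, 0 h array 1 (-3.05) lay apart from the other 3, with a gap of 0.836 of the whole range. For Snhg12, 0 h array 2 (3.21) lay apart, with a gap of 0.897 of the range.

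For 13 of these 30 genes, the 96 h and 48 h arrays also differed from each other in limma's test, against 11.1% of all genes. Most of the 13 were picked for a large difference of the same 96 h arrays from 0 h, so the count is no independent support. The log2 difference, 96 h minus 48 h, was 6.29 for Ltf, 4.47 for Retnlg, 3.48 for Ankrd22, 3.20 for Camp and for Itgb2l, 3.13 for Chil1, 2.59 for Ceacam10, 2.25 for Asprv1 and -0.69 for Il3ra. At 48 h, Ankrd22 was well above background on 1 of the 4 arrays, and Retnlg, Chil1 and Asprv1 on 3. Fcnb, Ifi44l, Alpk3 and Krt8 were so on none, and were at least 2.76-fold, 2.78-fold, 1.95-fold and 1.52-fold higher at 96 h than at 48 h. Slide and time cannot be told apart in these differences.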

How the results depend on the processing

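Against 1549 genes called higher, 848 lower and 640 with a change of 2-fold or more, scaling to the array median gave 231 higher and 2330 lower, and quantile normalization 980 higher. Normexp correction with quantile normalization gave 1359 lower and 144 past 2-fold, and 1278 were lower and 147 passed 2-fold in the values the authors deposited. Without a filter on dim probes 653 were higher and 257 lower, and with probes well above background on all arrays 402 passed 2-fold. Fitting only the 0 h and 96 h arrays gave 329 higher, 106 lower and 239 past 2-fold, and array weights gave 1285 lower. The replicate block by file number gave 1366 lower, and by title number, where the correlations were 0.36, -0.04 and -0.0019, 441 lower; among called genes picked by the naming rule, the block by file number ended the calls of Rara, Etv6 and Cd3e and no other. An alternative added after seeing the data, leaving out 96 h array 1 with the block, gave 479 higher and 402 lower. Leaving out 1 of the 11 arrays gave 482 to 1959 higher, 221 to 1336 lower and 340 to 892 past 2-fold. Nr1h2, which rose by 0.38, was at -0.0025 under scaling to the array median (adjusted p = 0.994). The cause of these shifts was not tested. No gene called here was called in the opposite direction by another setting. Signals near background limit what can be said of 115 genes called higher that stood well above background on none of the 0 h arrays.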
